A study of Rattus norvegicus with 6 samples.

Results

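The 9 genes described here encode coregulators of nuclear receptors, the proteins that carry a receptor's signal to chromatin and to RNA polymerase. They were taken by symbol from a deposited table of 22601 genes, in which each of the 9 symbols has 1 row. Of the 9, 3 were placed on the corepressor side (Ncor1, Nrip1 and Hdac3) and 6 on the coactivator side (Ncoa1, Ncoa2, Ncoa3, Med1, Crebbp and Ep300). RNA-seq had been run on RBL-2H3, a rat basophilic leukemia line with WT given as its genotype in both groups, in 3 control libraries and 3 libraries from cells given PIO, named in the series as a PPARγ agonist, at 10 µM for 6 h. Neither a vehicle nor a time is given for the control libraries, so either cannot be told apart from PIO. Nothing states that replicates were separate cultures, and the spread on which each p-value rests may be technical. All 8 mast cell and basophil markers that were checked were present, with control means from 31.0 FPKM for Mitf to 861 FPKM for Ms4a2, the β chain of the IgE receptor, and 6 of the 8 were lower and 2 higher with PIO, none past the threshold used below. The library totals behind the values were 14048202 to 15084729 reads. Control replicate 3 stood somewhat apart, its Pearson correlations with the other libraries across genes being 0.9916 to 0.9938 where the rest were 0.9937 to 0.9957, so values without it are given where they change a direction. FPKM, the deposited unit, is fragments scaled to gene length and to the reads of the library, so levels of different genes can be set side by side per length.

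Nuclear receptors such as PPARγ work with partner complexes. Without ligand, a receptor on DNA tends to hold NCoR, the product of Ncor1, which brings the histone deacetylase Hdac3 and keeps chromatin closed. Ligand changes the receptor's surface so that coactivators bind instead through short LXXLL motifs: the steroid receptor coactivators (Ncoa1, Ncoa2, Ncoa3), the acetyltransferases Crebbp and Ep300 that they bring, and Med1, the Mediator subunit that links the receptor to RNA polymerase. Nrip1 is unusual, because it binds ligand-occupied receptors through LXXLL motifs and yet represses. These proteins are mostly regulated by which partners they bind, and the RNA levels measured here do not report that.

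Promoter sequences of 6 of the 9 genes could be matched by GeneID in a RefSeq table of build GRCr8 (Ncor1, Nrip1, Hdac3, Ncoa1, Crebbp and Ep300), each taken as the 250 bases before the annotated start. They held between 18 and 43 CG dinucleotides, against a median of 17 (quartiles 10 and 23) over the 8385 promoters of genes tested here that could be matched in the same way. Crebbp and Ep300, which encode paralogous acetyltransferases, are printed because they lie far apart in that count while being close in function. Crebbp held 43 (1.34% of the tested genes' promoters had as many), and Ep300 held 24 (23.9% had as many). Both are given 5′ to 3′ on the plus strand, with CG in capitals.
Crebbp, chr10:11842090-11842339: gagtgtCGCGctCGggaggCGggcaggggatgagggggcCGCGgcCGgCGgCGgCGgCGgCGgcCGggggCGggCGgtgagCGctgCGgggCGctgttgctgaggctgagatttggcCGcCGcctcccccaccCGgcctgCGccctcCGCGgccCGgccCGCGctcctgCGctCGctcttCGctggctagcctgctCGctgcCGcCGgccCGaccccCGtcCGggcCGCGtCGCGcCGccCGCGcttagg
Ep300, chr7:114987607-114987856: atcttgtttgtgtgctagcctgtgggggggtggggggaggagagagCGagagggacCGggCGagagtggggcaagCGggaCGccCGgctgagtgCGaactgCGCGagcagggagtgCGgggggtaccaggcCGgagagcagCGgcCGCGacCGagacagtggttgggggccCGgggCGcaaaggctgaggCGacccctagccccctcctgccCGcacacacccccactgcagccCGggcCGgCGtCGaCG
The PPAR response element is built from AGGTCA, any 1 base, and AGGTCA again. Neither that motif nor a single AGGTCA was present on either strand in any of the 6 windows. AGGTCA, within the full motif or outside it, occurs in 10.0% of the tested genes' promoters and the full motif in 0.0477%. The absence says only that these letters are not in these 250 bases.

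The 9 genes spanned about 2 orders of magnitude in level, and the order was nearly the same in every library. Means over the 6 libraries were 54.4 FPKM for Hdac3, 37.9 for Ncor1, 31.9 for Med1, 18.7 for Ncoa3, 14.9 for Ep300, 4.66 for Crebbp, 2.45 for Ncoa1, 2.32 for Ncoa2 and 0.495 for Nrip1. Each gene lay above the next in all 6 libraries, except that Ncoa1 and Ncoa2 overlapped (Ncoa1 was the higher in 5 libraries). The 3 corepressors therefore took the 2 highest places and the lowest one. Within the steroid receptor coactivator family, Ncoa3 stood at 7.18 to 8.89 times Ncoa1 and at 7.29 to 8.74 times Ncoa2 per length. Ep300 exceeded Crebbp by 2.98 to 3.34 times, and Ncor1 exceeded Ncoa3 by 1.93 to 2.13 times.

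**Figure D1:**
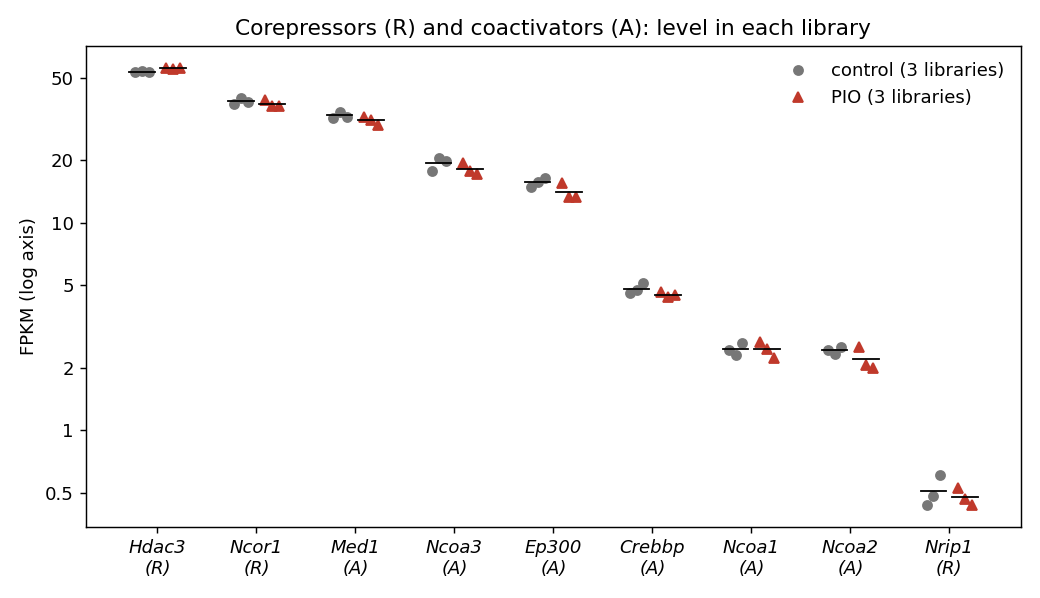
FPKM of the 9 genes in each library on a log axis, with grey circles for the 3 control and red triangles for the 3 PIO libraries and black bars for group means; R marks corepressors and A coactivators. Hdac3 (54.4 FPKM on average) and Ncor1 (37.9) are at the top and Nrip1 (0.495) at the bottom, and the groups overlap for every gene but Hdac3.

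None of the 8 genes that could be tested passed an adjusted p of 0.05 for PIO against control, where 0.0384% of all genes tested passed. Their adjusted p ran from 0.414 to 0.993 (limma with Benjamini-Hochberg adjustment over 10410 genes). Not passing does not show that a gene was unchanged, and the intervals below give the sizes left possible. None of the 8 had an unadjusted limma p under 0.05 either, against 12.5% of all genes. In limma-voom on the reads recovered from the FPKM values none passed, and 1, Ep300, had an unadjusted p under 0.05. The unadjusted limma p of Ep300 was also under 0.05 with median-of-ratios, quantile or TPM scaling and with sample weights. That of Hdac3 was under 0.05 with no filter on low values. Neither gene passed after adjustment in these fits. Only Nrip1 was too low to test, at a mean just under the minimum of 0.5 FPKM, while Ncoa2 at 2.32 FPKM was the lowest gene inside it. In bulk libraries, fewer cells holding a gene's RNA and less RNA per cell cannot be told apart. Of the 8, 7 had a log2 fold change below 0 and 1 above, where 46% of all genes were below 0. By length, 5 of the 8 were of 8000 bases and over, a length at which 73.8% of all genes tested were below 0. Whether this difference by length came with PIO or with the making of the libraries was not tested.

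Hdac3 (GeneID 84578), the deacetylase that gives NCoR its catalytic activity, was the 1 gene of the 8 whose libraries separated by group, as 18.5% of all genes tested did in either direction. In order of replicate number, the controls read 53.0, 53.7 and 53.1 FPKM and the PIO libraries 55.5, 55.1 and 55.7 FPKM. Every PIO library was above every control library, a pattern that 10.5% of all genes tested showed. The means were 53.3 ± 0.354 and 55.4 ± 0.304 FPKM (SD, n = 3), a difference of 4.07%, and on the log2(FPKM + 0.5) scale the log2 fold change came to 0.057 (SE 0.032, 95% interval -0.017 to 0.13, limma adjusted p = 0.49). Its replicates were closer than counting alone would give: with 1250 to 1320 reads per library, counting alone gives a coefficient of variation of 2.79% in control and 2.78% with PIO, and those observed were 0.664% and 0.548%. Over the summed reads the PIO rate was 1.04 times the control rate, with an exact binomial 95% interval of 0.995 to 1.09 that covers counting error only.

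Ncor1 (GeneID 54299), the scaffold that binds receptor and Hdac3, overlapped between groups. Its levels were 37.2, 39.9 and 38.2 FPKM in control and 38.9, 36.3 and 36.6 FPKM with PIO. The lowest control library and 2 of the PIO libraries lay together at the bottom. Means were 38.4 ± 1.37 and 37.3 ± 1.42 FPKM (SD, n = 3), which differed by -0.044 in log2 (SE 0.045, 95% interval -0.15 to 0.059, limma adjusted p = 0.694). That interval spans folds of 0.903 to 1.04. The value depended on single libraries, being -0.075 without PIO replicate 1, -0.068 without control replicate 1, -0.025 without PIO replicate 2 and -0.018 without control replicate 2. With 4287 to 4696 reads per library Ncor1 was the most deeply counted of the 9, and its replicates differed by 5.92 (control) and 6.32 (PIO) times the variance of counting.

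Nrip1 (GeneID 304157), the LXXLL-bearing corepressor best known from ovary and fat, was barely expressed. It was at 0.439, 0.483 and 0.608 FPKM in control and 0.53, 0.469 and 0.438 FPKM with PIO, from 68 to 99 reads per library. Control replicate 3 was the highest, and the remaining values interleaved. The means were 0.51 ± 0.0876 and 0.479 ± 0.0466 FPKM (SD, n = 3). Its log2 difference was -0.042, and without control replicate 3 it was 0.026. Leaving out control replicate 1 gave -0.093, PIO replicate 1 -0.079 and PIO replicate 3 -0.012. The summed reads allow a rate ratio of 0.78 to 1.13 by counting alone (exact binomial 95% interval).

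Among the coactivators, Ep300 (GeneID 170915), an acetyltransferase that opens chromatin at enhancers, had the largest difference. It was at 14.9, 15.7 and 16.4 FPKM in control and 15.5, 13.3 and 13.3 FPKM with PIO. PIO replicates 2 and 3 were below all controls, whereas PIO replicate 1 lay inside the control range. The means were 15.7 ± 0.76 and 14.0 ± 1.25 FPKM (SD, n = 3), the PIO mean being lower by a log2 fold change of -0.16 (SE 0.070, 95% interval -0.32 to 0.0056, limma adjusted p = 0.414, unadjusted p = 0.0567). Limma-voom gave an unadjusted p of 0.028 and an adjusted p of 0.332. Without PIO replicate 1, limma gave an unadjusted p of 0.00697 and an adjusted p of 0.205. That was the smallest p among the libraries left out, and it came from removing the PIO library nearest the controls. Without any other library, limma gave an unadjusted p from 0.0459 (without control replicate 1) to 0.176 (without PIO replicate 2). Left out in turn, the libraries moved the value between -0.23 (without PIO replicate 1) and -0.12 (without PIO replicate 2, with PIO replicate 3 or control replicate 3 close to it).

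Its paralogue Crebbp (GeneID 54244), which encodes CREB binding protein, was at 4.59, 4.76 and 5.10 FPKM in control and 4.63, 4.38 and 4.48 FPKM with PIO. The means of 4.82 ± 0.26 and 4.50 ± 0.124 FPKM (SD, n = 3) gave a log2 fold change of -0.090 (SE 0.069, 95% interval -0.25 to 0.069, limma adjusted p = 0.603), which was -0.051 without control replicate 3. As with Ep300, PIO replicates 2 and 3 were the 2 lowest libraries. The ratio of Ep300 to Crebbp was 3.24, 3.30 and 3.21 in control and 3.34, 3.03 and 2.98 with PIO, so the ratios overlapped as well.

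The 3 steroid receptor coactivators, which bind the liganded receptor directly, had different values. Ncoa3 (GeneID 84584) was at 17.7, 20.4 and 19.8 FPKM in control and 19.4, 17.7 and 17.2 FPKM with PIO, with a log2 fold change of -0.089 (SE 0.067, 95% interval -0.24 to 0.066, limma adjusted p = 0.597). Ncoa2 (GeneID 83724) was at 2.43, 2.33 and 2.53 FPKM in control and 2.53, 2.08 and 2.00 FPKM with PIO, with a log2 fold change of -0.12 (SE 0.099, 95% interval -0.35 to 0.10, limma adjusted p = 0.617). In both genes PIO replicate 1 sat among the controls. Without it the log2 fold change was -0.14 for Ncoa3 and -0.21 for Ncoa2, and without PIO replicate 3 it was -0.055 and -0.070. For Ncoa3 it was also -0.15 without control replicate 1 and -0.048 without control replicate 2. Ncoa2 replicates varied with a coefficient of 12.9% in the PIO group and 4.05% in control, where counting alone gives 6.42% and 5.99%. Ncoa1 (GeneID 313929) was at 2.45, 2.30 and 2.63 FPKM in control and 2.66, 2.47 and 2.22 FPKM with PIO. Its means were 2.46 ± 0.165 and 2.45 ± 0.221 FPKM (SD, n = 3), a log2 fold change of -0.0028 with a 95% interval of -0.22 to 0.21 (limma adjusted p = 0.993), so changes of up to 0.861 or 1.16 times are inside the interval. Its sign turned with the library left out, from -0.054 without PIO replicate 1 to 0.054 without PIO replicate 3.

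Med1 (GeneID 497991), the receptor-facing subunit of Mediator and a known requirement for PPARγ action in fat cells, was at 32.0, 34.2 and 32.2 FPKM in control and 32.3, 31.1 and 29.7 FPKM with PIO. The means were 32.8 ± 1.23 and 31.0 ± 1.33 FPKM (SD, n = 3), which differed by -0.079 in log2 (SE 0.048, 95% interval -0.19 to 0.031, limma adjusted p = 0.516), a value of -0.049 without control replicate 2 and -0.047 without PIO replicate 3. Again PIO replicates 2 and 3 were the lowest libraries and PIO replicate 1 was not.

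**Figure D2:**
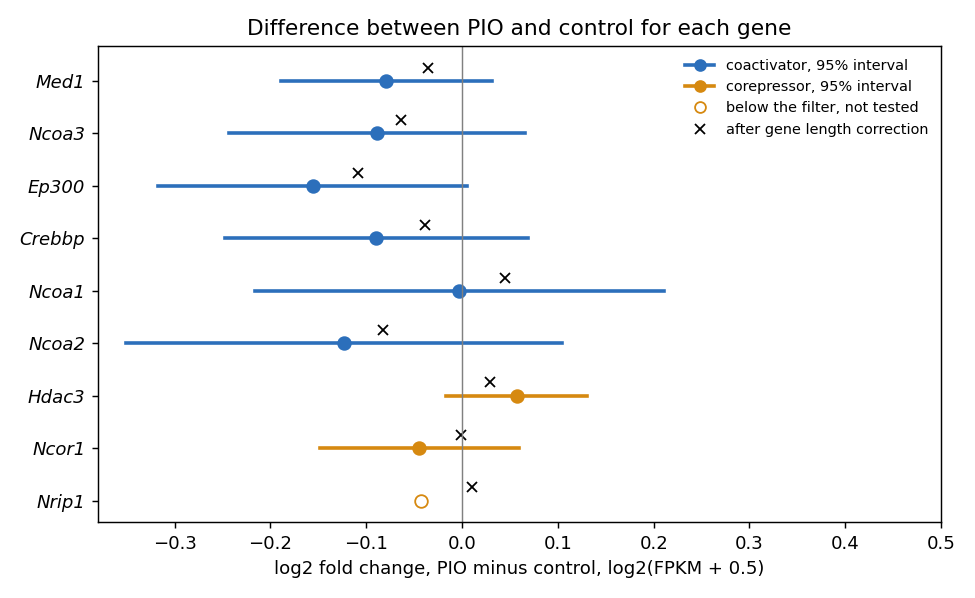
Log2 fold change, PIO minus control, with its 95% limma interval for each gene (blue coactivators, orange corepressors); the open circle is Nrip1, which was below the filter, and crosses give the value after the gene length correction. Every interval includes 0, Ep300 (-0.16) lies lowest and Hdac3 (0.057) highest.

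Set against each other as classes, the coactivators were lower with PIO than the corepressors by a small amount. The mean log2 fold change was -0.090 over the 6 coactivators and -0.010 over the 3 corepressors, a difference of -0.080. This is a description with no test, since the genes were chosen with results of these data known. Scored per library relative to the mean of the 6 libraries, the coactivators stood at -0.0032, 0.046 and 0.092 in control and 0.056, -0.075 and -0.12 with PIO, and the groups overlapped. The corepressors stood at -0.047, 0.014 and 0.047 in control and 0.041, -0.025 and -0.031 with PIO, overlapping too. The difference between the classes was 0.044, 0.031 and 0.045 in control and 0.015, -0.050 and -0.085 with PIO, so in this score no PIO library reached a control library. The separation needed Hdac3: with Ncor1 and Nrip1 alone as corepressors the score was 0.049, 0.015 and 0.0053 in control and 0.0097, -0.028 and -0.052 with PIO, the groups overlapped, and the difference was -0.046.

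**Figure D3:**
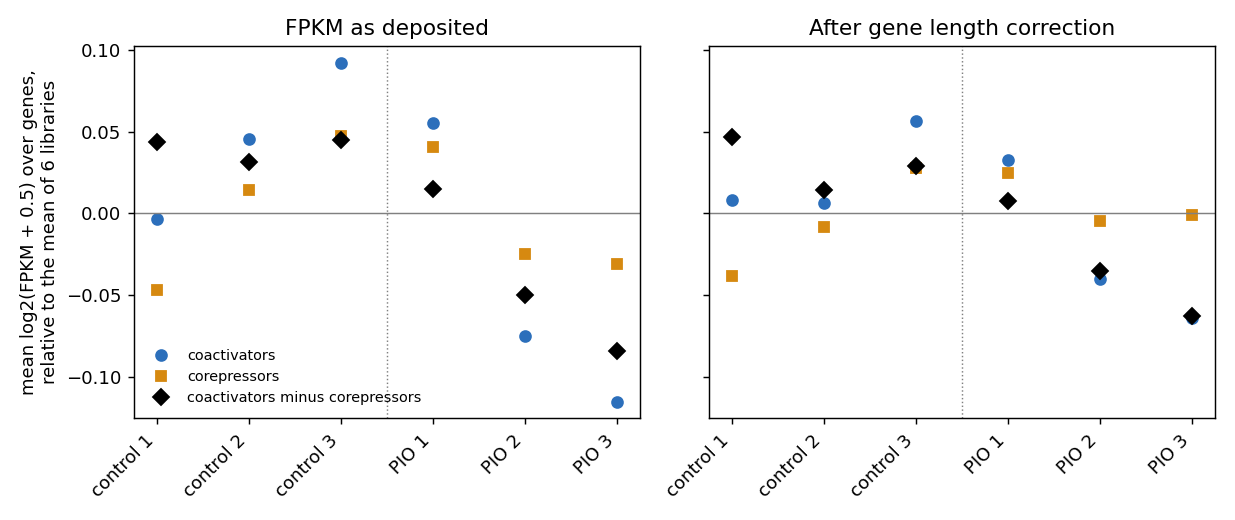
Mean log2(FPKM + 0.5) over the 6 coactivators (blue circles), over the 3 corepressors (orange squares) and their difference (black diamonds) in each library, relative to the mean of the 6 libraries, as deposited (left) and after the gene length correction (right). As deposited, the difference runs from 0.031 to 0.045 in control and from -0.085 to 0.015 with PIO.

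Most of these genes are long, and gene length moved with the library. The lengths behind the FPKM values were 1651 bases for Hdac3, 5769 for Ncoa3, 7805 for Ncoa2, and from 8307 (Ncor1) to 11014 (Nrip1) for the other 6. Over all genes tested, the median log2 fold change was 0.041 for the 3430 genes under 2000 bases and -0.049 for the 694 of 8000 bases and over, of which 73.8% were below 0. The trend also differed between libraries of 1 group: in the longest genes the median relative level was -0.013, 0.047 and 0.047 in control replicates 1 to 3 and 0.028, -0.044 and -0.057 in PIO replicates 1 to 3. PIO replicate 1 stood with control replicates 2 and 3 in this respect. Its Ncoa3 level was nearer to both of theirs than to that of control replicate 1. Its Ep300 level was nearer only to that of control replicate 2, and its Ncoa2 level only to that of control replicate 3. Its Crebbp level was nearest to that of control replicate 1.

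With each library's length trend subtracted, the differences became smaller for 8 of the 9 genes, all but Ncoa1. Log2 fold changes were -0.11 for Ep300, -0.082 for Ncoa2, -0.064 for Ncoa3, -0.039 for Crebbp, -0.036 for Med1 and 0.044 for Ncoa1, so 5 of the 6 coactivators were still below 0 and their median went from -0.089 to -0.051. Among the corepressors the values were 0.029 for Hdac3, -0.0014 for Ncor1 and 0.011 for Nrip1. None of the 8 tested genes passed (limma adjusted p from 0.481 to 0.992). The difference between the classes was then -0.060, with per-library values of 0.047, 0.015 and 0.029 in control and 0.0078, -0.035 and -0.063 with PIO.

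**Figure D4:**
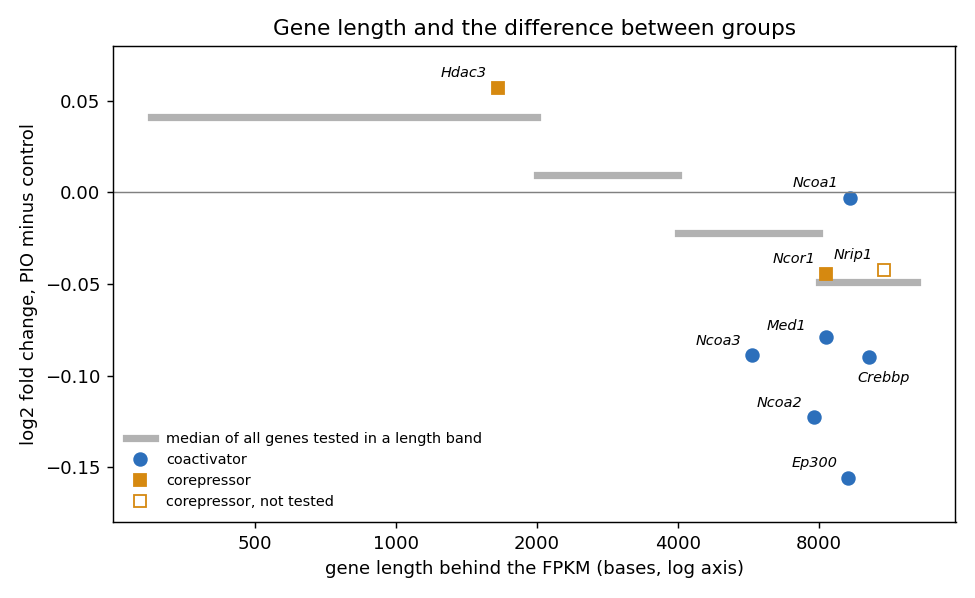
Log2 fold change, PIO minus control, against the gene length behind the FPKM values on a log axis; blue circles are coactivators, orange squares corepressors (open, not tested), and grey bars the median of all genes tested in each length band, the outer bars being cut at the plotted range. The medians go from 0.041 under 2000 bases to -0.049 at 8000 bases and over, and 5 coactivators lie below the bar of their own band while Ncoa1 lies above it.

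The partners of these proteins were examined in 6 lists with 79 genes, of which 70 were abundant enough to test. None passed (limma adjusted p over all genes tested), and 36 were higher and 34 lower. Of the 70, 7 (10.0%) had an unadjusted limma p under 0.05 against 12.5% of all genes. The groups did not overlap for 12 (17.1%), against 18.5% of all genes. Of 4 listed partners in the NCoR complex 3 were tested, 1 of them higher and 2 lower; the median in log2 was -0.063, where the median of all genes was 0.0094. Tbl1xr1, which encodes a WD-repeat protein that helps exchange corepressor for coactivator, was at 16.3, 17.8 and 17.7 FPKM in control and 15.7, 15.0 and 14.8 FPKM with PIO. All PIO libraries were below all controls (as for 8.09% of genes tested), and the log2 fold change of -0.18 did not pass (SE 0.053, limma adjusted p = 0.307). Gps2, another core subunit, was at 25.8 ± 1.05 and 25.9 ± 0.836 FPKM (SD, n = 3; 0.0016 in log2, limma adjusted p = 0.992). Tbl1x, the relative of Tbl1xr1, stood at 17.6 ± 0.841 and 16.8 ± 1.05 FPKM (SD, n = 3; -0.063, limma adjusted p = 0.675).

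Of the other histone deacetylases, 7 of 10 were tested, 6 were higher and 1 lower, and the median was 0.055. Hdac5, a class II deacetylase that binds NCoR, averaged 6.07 ± 0.373 and 6.997 ± 0.574 FPKM (SD, n = 3; 0.19 in log2, limma adjusted p = 0.386), and Hdac1 at 150 ± 3.73 and 156 ± 4.24 FPKM (0.061, limma adjusted p = 0.5). In the list of Sin3, CtBP, CoREST and other corepressors, 6 of 12 tested genes were higher, with a median of 0.0015. Its smallest p values belonged to Sin3b, a scaffold for Hdac1 and Hdac2, at 195 ± 7.22 and 206 ± 2.05 FPKM (0.083, limma adjusted p = 0.396), and to the histone-binding Rbbp4 (-0.085, limma adjusted p = 0.53).

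On the activating side, the list of 15 other acetyltransferase, methyltransferase and related coactivators had 6 genes higher and 9 lower, with a median of -0.027. Kat2b, an acetyltransferase that binds Crebbp and Ep300, was at 9.08, 9.67 and 10.3 FPKM in control and 8.64, 8.16 and 7.54 FPKM with PIO. No PIO library reached a control library, a pattern that 8.09% of all genes tested showed. The log2 fold change of -0.24 did not pass (SE 0.072, limma adjusted p = 0.308). Cited2, which binds the same acetyltransferases, stood at 327 ± 7.69 and 310 ± 10.7 FPKM (SD, n = 3; -0.074, limma adjusted p = 0.443). Mediator was the best covered complex, with 30 of its 31 other listed genes tested, 15 higher and 15 lower, and a median of 0.0036. Its smallest p values were those of Med15, a tail subunit, at 21.9 ± 0.381 and 24.3 ± 0.856 FPKM (0.15, limma adjusted p = 0.31), and Med28, at 22.4 ± 0.75 and 25.003 ± 0.824 FPKM (0.15, limma adjusted p = 0.311). Both had every PIO library above every control library, as 10.5% of all genes tested did. Counting both directions, 4 of the 30 Mediator genes did not overlap, where 18.5% of all genes tested did not. Med1 overlapped like most of the 30.

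Of the 6 PPAR and RXR receptor genes, 3 were abundant enough to test, 2 of them higher and 1 lower with PIO. Rxrb, an RXR that can pair with PPARs, was the highest of the list, at 13.8, 13.5 and 16.4 FPKM in control and 15.2, 15.5 and 16.1 FPKM with PIO, from 611 to 779 reads per library. The groups overlapped, and the log2 fold change was 0.10 (SE 0.076, 95% interval -0.071 to 0.28, limma adjusted p = 0.588). Rxra, another RXR, had 25, 26 and 26 reads in control and 17, 17 and 15 with PIO. All PIO libraries were below all controls in FPKM, as for 8.09% of genes tested. The PIO mean was 0.658 times the control mean in FPKM. The log2 fold change of -0.41, made smaller by the pseudocount, did not pass (SE 0.10, limma adjusted p = 0.29). Ppard averaged 6.59 ± 0.411 and 6.94 ± 0.278 FPKM (SD, n = 3; 0.071 in log2, limma adjusted p = 0.67). Pparg had at most 1 read in a control library and none with PIO, under the floor of 3 reads, so no fold is given.

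Across the 6 libraries Hdac3 had negative correlations with the other members, some of them weak. Its Pearson correlation of log2(FPKM + 0.5) with each of the other 8 genes lay between -0.65 and -0.14, and the 28 pairs without Hdac3 lay between 0.18 and 0.93. These are descriptions over 6 libraries that share depth scaling and the length trend above, and Hdac3 is the 1 short gene. Among 7754 other genes averaging 5 FPKM or more, the profile most like that of the coactivators belonged to Ikzf1 (Pearson r = 0.991), the gene of a lymphoid zinc finger factor, then Mfsd14b (0.991) and Glg1 (0.989). For the corepressors it was Rere (0.986), itself a corepressor gene, then Med23 (0.976) and Stk38l (0.975), and with so many genes over 6 points such values arise readily.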

How the data were processed

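The 6 libraries, 3 per group, were RNA-seq of RBL-2H3 cells. The authors deposited FPKM per gene and library, and per the labels' protocols the libraries came from a stranded mRNA kit. Per the submitters' processing notes the tools included HISAT2 2.2.1.0, BWA 0.7.5a, HTSeq, Cufflinks, DESeq, SAMtools 1.3.1, Trimmomatic 0.36 and FastQC 0.11.5, with no roles given, and the build was GRCh38, a human build, although the table's genes are those of the rat. No coordinates were therefore taken from the values' own build. Whole reads and gene lengths were recovered from the FPKM steps for 15429 genes, all of those above 0 (tolerance 0.004 of a read, slightly wider at high counts), and library totals were 14048202 to 15084729 reads. The 10410 genes averaging 0.5 FPKM or more were tested on log2(FPKM + 0.5) by limma 3.58.1 (R 4.3.3), fitting group alone and a variance trend, with two-sided p-values adjusted by Benjamini-Hochberg and a threshold of 0.05. The pseudocount makes folds of low genes appear smaller. Exact permutation of 3 against 3 libraries has a smallest p of 0.1 and was not used. For the length correction, a lowess of each library's relative level on log2 length (span 0.3) was subtracted. Intervals on reads cover counting error only. The named genes are the 9 members, the 2 tested genes with the smallest p in each of 6 partner lists, a few fixed partners, and the 3 genes most like each class. One partner gene is not reported here. The members, lists and alternatives were chosen with earlier results of these data known. The code was tested on simulated data. Tables and figures used Python 3.11.15 with pandas 2.3.3, scipy 1.17.1, numpy 2.4.6 and matplotlib 3.10.9.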

Additional observations from a re-analysis of the deposited data

How the results depend on the processing

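No member and no partner gene passed under any of 20 other settings: a pseudocount of 0.1 or 1, a minimum mean of 1 or 5 FPKM or none, 3 scalings, the length correction, 3 variance or weight settings, a replicate block, limma-voom on recovered reads and each library left out. A quasi-likelihood count test was not run. The deposited values are not counts, and limma-voom was the only fit on the recovered reads. The count of genes changed among all genes tested was 4, and 1 without a filter, 2 without a variance trend, 7 with a robust fit and 7 with limma-voom; it was 2 without control replicate 1, and 2 to 4 over the libraries left out. Ncoa1 turned from -0.0028 to 0.044 with the length correction, and 0.024 with sample weights, and ran from -0.054 to 0.054 over the libraries left out, above 0 without control replicate 3 (0.038) or PIO replicate 3. Nrip1 turned from -0.042 to 0.011 with the length correction, and ran from -0.093 to 0.026 over the libraries left out, above 0 without control replicate 3. The cause was not tested, beyond what the corrections subtract. The other 7 genes kept their sign in all 20, but without single libraries Ncor1, Ncoa2, Ncoa3, Med1 and Crebbp moved by over 1.5 times, and with TPM scaling so did Hdac3 (0.028) and Ncor1 (-0.074). The difference between classes kept its sign throughout, from -0.11 to -0.046, the latter without Hdac3, an alternative that, like leaving out Nrip1 (-0.096), was chosen after seeing the data. With the replicate block 3 genes passed and no member did (limma adjusted p from 0.466 to 0.994). Nothing states that the replicate numbers pair the libraries. The correlations of same-numbered deviations were -0.068, 0.028 and 0.078, and those of different-numbered ones ran from -0.094 to 0.082. With 3 libraries per group these values cannot settle whether there was a pairing. At these depths counting alone gives coefficients of variation from 1.46% for Ncor1 to 11.6% for Nrip1.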
